A study of Mesocricetus auratus with 6 samples.

Results

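The 10 genes described here encode folding chaperones and a degradation factor of the endoplasmic reticulum (ER): Hspa5, Hsp90b1, Calr, Canx, Pdia3, Pdia4, Pdia6, P4hb, Manf and Sel1l. They were taken by symbol from a table of 16078 genes, after the NCBI Gene IDs of the rows had been paired with golden hamster symbols. All 10 were found. The choice was made with the difference between the groups already known, since Sel1l and Manf were picked for lying on opposite sides, so the differences of these 10 genes are given as a description with no test.

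The cells were BHK21, a fibroblast-like line established from baby hamster kidney (the labels give kidney as the tissue and an age of 1 day). STYK1/NOK, a membrane protein with a kinase-like domain, was introduced by transfection in 3 libraries (STYK1 1 to 3, titled N1 to N3), and the empty plasmid pCMV-Myc in the other 3 (vector 1 to 3, titled P1 to P3). Total RNA was taken at 48 after transfection, with no unit stated, and sequenced. The labels name neither the species of the STYK1/NOK sequence nor the share of cells that took up plasmid, and nothing says that the libraries of a group were separate cultures, so their spread may be technical. The values are FPKM, fragment numbers divided by transcript length and by library size, which allow levels to be compared between genes. In RNA from a whole culture, fewer cells that express a gene and less RNA of it per cell cannot be told apart.

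Proteins that enter the secretory pathway fold in the ER. Hspa5 encodes BiP, the HSP70 of the ER, and Hsp90b1 its HSP90; calnexin and calreticulin hold glycoproteins through their sugars, and protein disulphide isomerases form and rearrange disulphide bonds. Proteins that fail to fold are handed to ER-associated degradation (ERAD), in which SEL1L joins substrate receptors to the ubiquitin ligase HRD1, and an excess of unfolded protein sets off the unfolded protein response, which raises transcription of many of these genes.

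Vector 1 stood apart from the other 5 libraries, with correlations of 0.963 to 0.976 to them on log2(FPKM + 1), against 0.988 to 0.993 among the rest, so differences of the 10 genes are also given without it, and so are those of the other named genes where it moved them by over 1.5 times. Depth relative to STYK1 1, read from the spacing of low FPKM values, lay between 0.979 and 1.03, and absolute depth is unknown. The hamster Styk1 gene itself read 1.5, 1.8 and 1.89 FPKM with the vector and 2.04, 2.46 and 2.41 FPKM with STYK1/NOK. Of the fibroblast markers, Vim lay between 3650 and 4141 FPKM in every library, while Col1a1 did not exceed 1.02 FPKM. The epithelial markers Epcam, Cdh1, Krt8, Krt18 and Cdh16 did not exceed 0.23 FPKM, and Pax8 lay between 0.45 and 1.12 FPKM. Of the endothelial markers, Pecam1, Tek and Vwf did not exceed 0.54 FPKM, while Cdh5 lay between 4.45 and 9.11 FPKM. The leukocyte marker Ptprc did not exceed 0.16 FPKM, but Cd68, a lysosomal protein of macrophages, lay between 279 and 351 FPKM. Genes entered the test where either group averaged 1 FPKM or more, 11464 in all. Of these, 0 (0%) passed between the groups (limma-trend, Benjamini-Hochberg adjusted p under 0.05, smallest adjusted p = 0.469). With unadjusted p under 0.05 there were 1128 (9.84%), of which 568 (4.95%) were higher and 560 (4.88%) lower with STYK1/NOK, a split that became 1263 and 218 with libraries brought to equal FPKM sums and 402 and 762 with median centring.

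The chaperones were among the most abundant transcripts of these cells. By mean FPKM over the 6 libraries, Calr ranked 109, Pdia3 119, Pdia6 124, Hsp90b1 173, P4hb 175, Hspa5 191, Canx 343, Manf 590 and Pdia4 642 of the 16078 genes, at means from 721 FPKM for Calr to 137 FPKM for Pdia4. Sel1l, the one ERAD gene of the set, lay far below them at 16.2 FPKM and rank 5651. The neighbours Pdia3 and Pdia6, at 636 and 610.0 FPKM, lay within the range of each other's libraries, as did Hsp90b1 and P4hb at 449 and 432 FPKM. Together the 10 genes made up 0.588%, 0.694% and 0.696% of the summed FPKM in vector 1 to 3, and 0.730%, 0.649% and 0.711% in STYK1 1 to 3. The groups overlapped in this share.

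**Figure D1:**
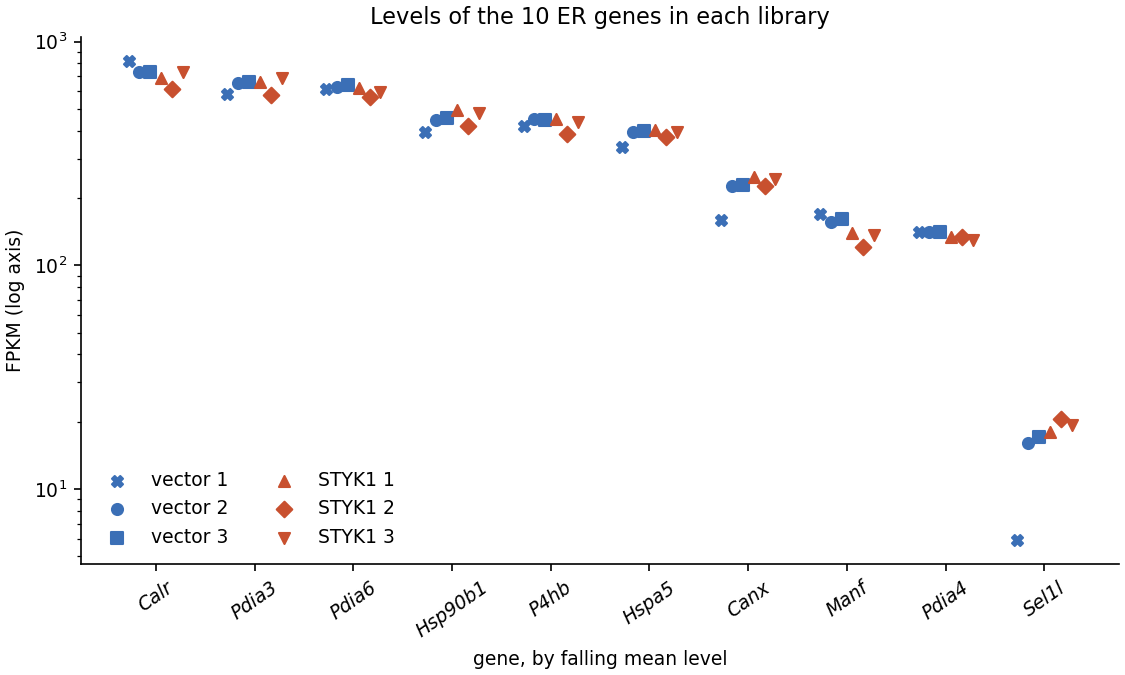
FPKM of each of the 10 genes (y axis, log scale) in the 3 vector libraries (blue) and the 3 STYK1 libraries (red), 1 point per library, with genes in order of falling mean. Chaperones lie above 100 FPKM in every library, Sel1l lies at 5.95 FPKM in vector 1 and between 16.0 and 20.7 FPKM in the other libraries, and the groups separate for Calr, Manf, Pdia4 and Sel1l.

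Hspa5 (Gene ID 101822689), the chaperone whose release sets off the stress sensors of the ER, measured 339.7, 394 and 397 FPKM in vector 1 to 3 and 401, 374 and 393 FPKM in STYK1 1 to 3. Vector 1 was the lowest library, and the groups overlapped. The means were 377 ± 32.2 FPKM with the vector and 389.5 ± 14.1 FPKM with STYK1/NOK (mean ± SD, 3 libraries each), a difference of 0.05 ± 0.09 (SE) in log2(FPKM + 1), which was -0.02 ± 0.06 without vector 1, 0.16 with libraries brought to equal FPKM sums and 0.18 after quantile normalization. Hsp90b1 (Gene ID 101844365), which folds a small set of clients that includes Toll-like receptors and integrins, measured 396, 449 and 456 FPKM with the vector and 493, 420.3 and 481 FPKM with STYK1/NOK. Again vector 1 was the lowest and the groups overlapped, with a log2 difference of 0.10 ± 0.10 (SE), or 0.04 ± 0.08 without vector 1. It was 0.05 without STYK1 1, 0.17 without STYK1 2, 0.21 with equal sums and 0.24 after quantile normalization. The level of Hsp90b1 was 1.17, 1.14 and 1.15 times that of Hspa5 in the vector libraries and 1.23, 1.12 and 1.22 times in the STYK1 libraries, so the main pair of ER chaperones kept a ratio within a narrow range in all 6 libraries, vector 1 included.

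The lectin chaperones had differences of opposite sign, except after quantile normalization. Calr (Gene ID 101838124), the soluble calreticulin, measured 822, 732 and 735 FPKM with the vector and 689.96, 615 and 731 FPKM with STYK1/NOK. All 3 STYK1 libraries were below all 3 vector libraries, though STYK1 3 and vector 2 were nearly level. The log2 difference was -0.17 ± 0.10 (SE), -0.12 ± 0.08 without vector 1 and -0.10 without STYK1 2, the lowest library for Calr. It was -0.06 with equal sums and 0.05 after quantile normalization. Canx (Gene ID 101828013), the membrane-bound calnexin, measured 160.1, 226 and 229 FPKM with the vector and 249, 227 and 244 FPKM with STYK1/NOK. Here vector 1 was far below the rest and STYK1 2 fell between vector 2 and vector 3. The log2 difference of 0.24 ± 0.14 (SE) was 0.07 ± 0.06 without vector 1, over 1.5 times smaller.

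The ratio of Canx to Calr, taken within each library and so free of any scaling between libraries, was 0.195, 0.309 and 0.312 in vector 1 to 3 and 0.361, 0.369 and 0.334 in STYK1 1 to 3. All 3 STYK1 libraries lay above all 3 vector libraries, with and without vector 1. Calr was chosen with this contrast known and separated alone, so the ratio is no second result. Pdia3 (Gene ID 101840081), the disulphide isomerase that works with both lectins, measured 581, 652 and 658 FPKM with the vector and 658, 579 and 689 FPKM with STYK1/NOK. Its lowest values came from 1 library of each group, and its log2 difference of 0.02 ± 0.10 (SE) was -0.03 ± 0.08 without vector 1, -0.03 without STYK1 3 and -0.0045 after median centring. In the other direction it was 0.10 without STYK1 2, 0.14 with equal sums and 0.15 after quantile normalization. Relative to Calr, Pdia3 lay at 0.707, 0.891 and 0.895 with the vector and at 0.953, 0.942 and 0.943 with STYK1/NOK, with no overlap. Pdia3 alone overlapped between the groups and Calr alone did not, so this ratio is no second result either.

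**Figure D2:**
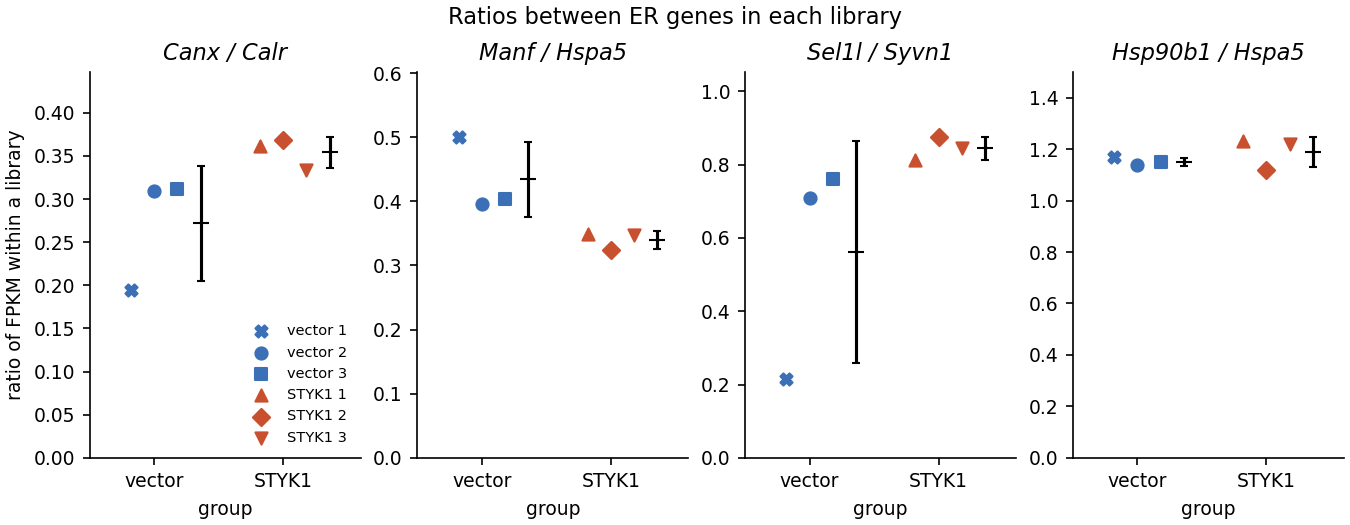
Ratio of FPKM between 2 genes of the same library (y axis, from 0) for Canx over Calr, Manf over Hspa5, Sel1l over Syvn1 and Hsp90b1 over Hspa5, with 1 point per library and the group mean with its SD (n = 3) as a black bar beside the points. The groups separate in the plots of Canx over Calr, Manf over Hspa5 and Sel1l over Syvn1, where vector 1 lies far from the other vector libraries, and overlap for Hsp90b1 over Hspa5.

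The other disulphide isomerases differed little between the groups. P4hb (Gene ID 101838654), the classical protein disulphide isomerase and a subunit of collagen prolyl hydroxylase, measured 418, 453 and 447 FPKM with the vector and 452, 386 and 436 FPKM with STYK1/NOK. Pdia6 (Gene ID 101835637), which acts with BiP, measured 612, 629 and 639 FPKM with the vector and 619, 564 and 597 FPKM with STYK1/NOK. Both overlapped between the groups, and STYK1 2 was the lowest library for both. Their log2 differences were -0.05 ± 0.09 (SE) for P4hb and -0.08 ± 0.08 (SE) for Pdia6, and each took the other sign, at 0.06 and 0.03, with equal FPKM sums, under which the median over all tested genes went from 0.01 to 0.12. Both were at 0.07 after quantile normalization, and P4hb was also above 0 without STYK1 2.

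Pdia4 (Gene ID 101834693), an isomerase of the same family that also associates with BiP, was the steadiest of the 10. It measured 140.9, 140.5 and 141 FPKM with the vector and 135, 134 and 129.6 FPKM with STYK1/NOK. All STYK1 libraries lay below all vector libraries, by a ratio of means of 1.06, and vector 1 did not stand apart for this gene. The log2 difference was -0.09 ± 0.07 (SE), -0.09 ± 0.05 without vector 1, and 0.03 with equal sums and 0.01 after quantile normalization. Its SD within groups was 0.02 log2 units, at the 0.131 percentile of all tested genes, whereas the SE borrows the spread of other genes and is therefore wider.

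Manf (Gene ID 101826107), a small secreted and ER-resident protein that binds BiP, measured 170.2, 156 and 160.4 FPKM with the vector and 140.2, 121 and 137 FPKM with STYK1/NOK. Every STYK1 library was below every vector library. The gap between vector 2 and STYK1 1, the nearest pair, was wider than the range of the vector libraries but narrower than that of the STYK1 libraries. The means were 162 ± 7.33 FPKM with the vector and 133 ± 10.1 FPKM with STYK1/NOK (mean ± SD, 3 libraries each), a ratio of 1.22. The log2 difference was -0.29 ± 0.09 (SE) with all libraries and -0.25 ± 0.07 without vector 1, and over the 14 alternatives that were run it ranged from -0.33 to -0.18. Manf was 0.501, 0.396 and 0.404 of the level of Hspa5 in vector 1 to 3, and 0.349, 0.324 and 0.348 in STYK1 1 to 3. This ratio did not overlap, but Manf was picked from this contrast and separated alone, so the ratio is no second result.

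Sel1l (Gene ID 101834260) measured 5.95, 16.0 and 17.1 FPKM in vector 1 to 3 and 18.1, 20.7 and 19.4 FPKM in STYK1 1 to 3. The groups did not overlap, but vector 1 was at 0.359 of the mean of vector 2 and 3, much farther from them than they were from the STYK1 libraries. The group means were 13.0 ± 6.16 FPKM with the vector and 19.4 ± 1.30 FPKM with STYK1/NOK (mean ± SD, 3 libraries each), a ratio of 1.49 that was 1.17 without vector 1. In log2(FPKM + 1), Sel1l differed by 0.66 ± 0.33 (SE) with all libraries and 0.21 ± 0.09 without vector 1. Its SD within groups was at the 98.7 percentile of all tested genes with vector 1 included. The 14 alternatives gave between 0.21 and 0.91.

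**Figure D3:**
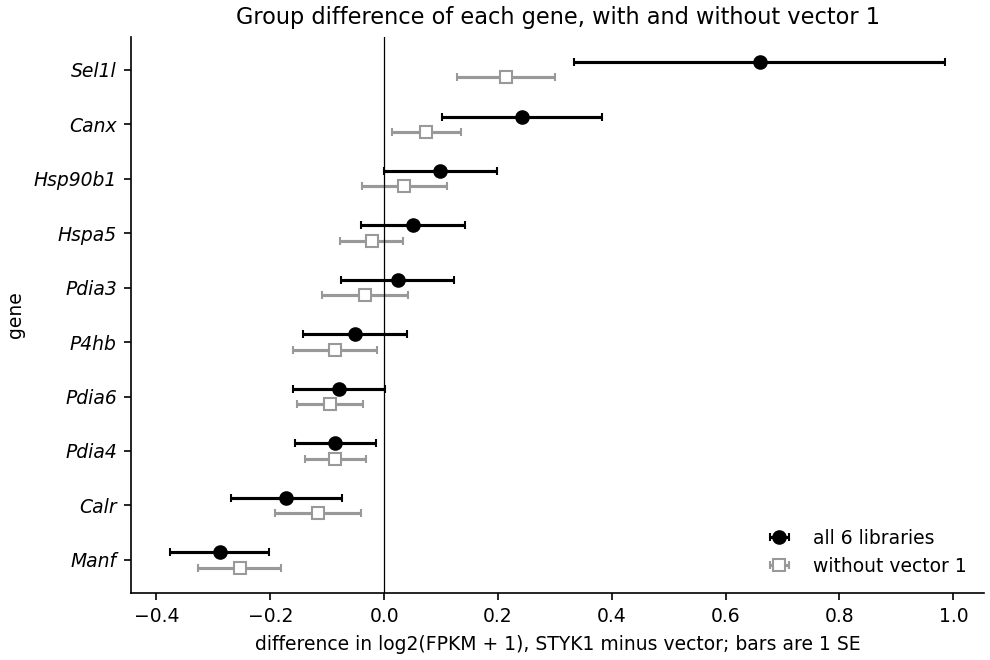
Difference in log2(FPKM + 1) between STYK1 and vector libraries for each of the 10 genes (x axis), with bars of 1 SE, from all 6 libraries (filled circles) and without vector 1 (open squares). Sel1l moves from 0.66 to 0.21 and Canx from 0.24 to 0.07 when vector 1 is left out, while Manf moves only from -0.29 to -0.25.

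Sel1l and Manf lay at opposite ends of the set, and leaving out vector 1 took away most of the difference of Sel1l and little of that of Manf. Of the 10 genes, 1 lay higher and 3 lay lower with STYK1/NOK, with no overlap between groups, against 13.6% of all tested genes higher and 9.44% lower; since this contrast chose the genes, nothing is read from that count. With equal sums the counts were 2 higher and 1 lower, where 2804 of all tested genes were higher and 453 lower. With median centring they were 1 and 4, against 1193 and 1431 of all tested genes, and after quantile normalization 4 and 1, against 1346 and 1061. Without vector 1, Pdia6 joined the lower genes, making 1 higher and 4 lower, where 17.9% and 11.9% of all tested genes were higher and lower with no overlap. The median log2 difference of the 10 genes was -0.01, against 0.01 for all tested genes, and -0.06 without vector 1, against 0.02. That median was 0.10 with equal sums, when all tested genes lay at 0.12, and 0.11 after quantile normalization, when all tested genes lay at -0.0019. Leaving out vector 1 moved the difference of 6 of the 10 genes by over 1.5 times or to the other sign: Hspa5, Hsp90b1, Canx, Pdia3, P4hb and Sel1l.

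The genes also differed in which library was extreme. Vector 1 was the lowest of the 6 libraries for Hspa5, Hsp90b1, Canx and Sel1l and the highest for Calr and Manf. STYK1 2 was the lowest for Calr, Pdia3, Pdia6, P4hb and Manf and the highest for Sel1l. Vector 1 was thus at an end for 6 of the 10 genes (60%), against 73.3% of all tested genes. Levels across the libraries were most like those of Hspa5 in M6pr, a mannose 6-phosphate receptor, Actn4, Qsox2, Slc18b1 and Pam, with root mean square differences of 0.0135 to 0.0212 log2 units over the 6 libraries after each gene was centred on its own mean. Among 10019 genes compared with Hspa5 in this way, Hsp90b1 ranked 187, Pdia3 296, P4hb 814, Pdia6 1171 and Pdia4 1987. Canx ranked 3396, Calr 5224, Manf 6288 and Sel1l 9920. Profiles were not scaled by their spread, so a gene that varies much, such as Sel1l, ranks far even where it moves the same way. The genes nearest to Sel1l were Dock1, Ids, Nufip2, Gnaq and Fam199x, with differences of 0.0609 to 0.103. All 5 were lowest in vector 1, as Sel1l was, which follows from their being picked for nearness over these same libraries. Dock1, a guanine nucleotide exchange factor for Rac, measured 7.82, 18.8 and 19.2 FPKM with the vector and 21.3, 23.3 and 22.6 FPKM with STYK1/NOK. No other gene of the 10 was among the nearest 5 of either.

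The rest of the ER folding and ERAD machinery was then taken from lists of general knowledge, 5 lists with 103 tested genes in all. None of the 103 passed (limma-trend, 0 at an adjusted p under 0.05). Unadjusted, 1 higher and 1 lower gene had a p under 0.05, against 9.84% of all tested genes, and these counts were 7 and 0 with equal sums and 1 and 3 with median centring. The groups did not overlap for 6 that were higher and 14 that were lower, 19.4% of the 103, against 23.1% of all tested genes. With equal sums these were 20 higher and 2 lower, 21.4% of the 103 against 28.4% of all tested genes. With median centring they were 3 and 16, 18.4% against 22.9%. Without vector 1 these numbers were 9 and 17, or 25.2% against 29.8%. The median log2 difference was -0.03 with all libraries and -0.01 without vector 1. With equal sums the median of every list named here was above 0, between 0.055 and 0.19, beside the 0.12 of all tested genes. With libraries weighted by their quality, which called 24 genes (0.209%) over the whole table, again 0 of the 103 passed.

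Co-chaperones and partners of BiP and GRP94 had a median log2 difference of -0.02 over 15 tested genes. With no overlap, 3 were higher and 4 lower, 46.7% of the list against 23.1% of all tested genes. Without vector 1 the share was 53.3% against 29.8%. The list was chosen with earlier results of these data known, and its share was not tested. At an unadjusted p under 0.05 there were 0 (limma-trend). Sdf2l1, a partner of the ER DnaJ proteins, measured 23.3 ± 1.22 FPKM with the vector and 19.6 ± 2.14 FPKM with STYK1/NOK, and its log2 difference of -0.24 ± 0.11 (SE) was -0.24 without vector 1, -0.15 without STYK1 2 and -0.14 with equal sums. Sec63, the DnaJ protein of the translocon, lay on the other side, at 47.7 ± 1.13 FPKM with the vector and 52.9 ± 1.79 FPKM with STYK1/NOK. Cnpy2 measured 224 ± 21.8 against 192 ± 10.4 FPKM, and Cnpy3, a GRP94 co-chaperone for Toll-like receptors, 46.0 ± 6.92 against 38.9 ± 1.97 FPKM. Without vector 1 the log2 difference went from -0.22 to -0.14 for Cnpy2 and from -0.23 to -0.11 for Cnpy3. Hyou1, the large HSP70-like exchange factor of BiP, measured 81.0, 91.1 and 83.8 FPKM with the vector and 84.0, 84.0 and 89.5 FPKM with STYK1/NOK. The groups overlapped, with a log2 difference of 0.01 that was -0.03 without vector 1. Relative to Hspa5, Hyou1 lay at 0.238, 0.231 and 0.211 with the vector and at 0.209, 0.225 and 0.227 with STYK1/NOK, also with overlap. Cdnf, the paralog of Manf, read 0.12, 0 and 0 FPKM with the vector and at 0.37, 0 and 0.12 FPKM with STYK1/NOK, and was below the level for testing.

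Isomerases and oxidoreductases of the ER had a median of -0.05 over 24 tested genes. With no overlap, 1 was higher and 4 lower, 20.8% of the list against 23.1% of all tested genes. At an unadjusted p under 0.05 there was 1 higher gene and 0 lower (limma-trend). Ppib, cyclophilin B, measured 504 ± 59.1 FPKM with the vector and 431 ± 27.4 FPKM with STYK1/NOK, and Prdx4, the peroxiredoxin of the ER, 158 ± 1.54 against 144.5 ± 11.3 FPKM. Without vector 1 the log2 difference of Ppib went from -0.22 to -0.13, and that of Prdx4 stayed at -0.13. Prdx4 was at -0.02 with equal sums, -0.04 after quantile normalization and -0.08 without STYK1 2. Its nearest libraries, STYK1 3 at 155.9 FPKM and vector 3 at 156.4 FPKM, were almost level. Fkbp11 measured 53.1, 36.3 and 33.5 FPKM with the vector and 30.9, 33.2 and 31.0 FPKM with STYK1/NOK, with vector 1 far above the rest. The log2 difference of Fkbp11 was -0.33 ± 0.16 (SE), and -0.13 without vector 1. Tmx3, a membrane-bound isomerase, was the reverse, at 19.3, 30.7 and 30.0 FPKM with the vector and 34.9, 31.99 and 33.4 FPKM with STYK1/NOK, with a log2 difference of 0.34 ± 0.17 (SE) that was 0.14 without vector 1. Serpinh1, the collagen chaperone HSP47, had the highest mean of the list over the 6 libraries, 474.5 FPKM beside 467.6 FPKM for Ppib, at 487 ± 12.6 FPKM with the vector and 462 ± 43.3 FPKM with STYK1/NOK.

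The glycoprotein folding and lectin list, whose products trim and read the sugars that calnexin and calreticulin bind, had a median of 0.09 over 13 tested genes and of -0.01 without vector 1. In it, 1 gene was higher and 2 were lower with no overlap, and 0 had an unadjusted p under 0.05 (limma-trend). The share with no overlap was 23.1% in the list and 23.1% in all tested genes. Edem3, a mannosidase that marks glycoproteins for ERAD, measured 4.41, 9.83 and 10.01 FPKM with the vector and 13.0, 11.6 and 10.7 FPKM with STYK1/NOK, so that it resembled Sel1l in vector 1. The log2 difference of Edem3 was 0.56 ± 0.26 (SE), and 0.22 without vector 1. Edem2, of the same family, lay on the other side at 33.4 ± 3.46 against 30.2 ± 0.685 FPKM, a log2 difference of -0.14 that was -0.05 without vector 1. Os9, a lectin that binds SEL1L, measured 187.5, 132 and 133 FPKM with the vector and 125, 131 and 122 FPKM with STYK1/NOK, and was highest in the library where Sel1l was lowest. Vector 1 was the lowest library for 8 of the 13 tested genes of this list and the highest for 4. That was 92.3% of the list, against 73.3% of all tested genes, so an extreme vector 1 is not particular to Edem3 or Os9. The log2 difference of Os9 was -0.24, and -0.07 without vector 1. Prkcsh, the beta subunit of glucosidase II, had the highest level of the list, at 202 ± 30.5 against 177.5 ± 6.26 FPKM, with a log2 difference of -0.18 that was -0.06 without vector 1.

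In the list of ERAD ligases, channels and extraction factors, 0 of 32 tested genes were higher and 4 were lower with no overlap. That was 12.5% of the list, against 23.1% of all tested genes. The median was -0.05, or -0.02 without vector 1. Unadjusted, 0 higher genes and 1 lower had a p under 0.05 (limma-trend). That gene was Ubac2, an ER membrane protein with a ubiquitin-binding domain, at 15.9, 14.3 and 13.5 FPKM with the vector and 11.1, 11.98 and 10.9 FPKM with STYK1/NOK. The difference of Ubac2 was -0.34 ± 0.11 (SE), with an adjusted p of 0.469 (limma-trend), and -0.28 without vector 1. The ligase that SEL1L serves, Syvn1 (HRD1), measured 27.6, 22.5 and 22.5 FPKM with the vector and 22.3, 23.6 and 23.0 FPKM with STYK1/NOK, with overlap. Sel1l was 0.215, 0.710 and 0.761 of the level of Syvn1 in vector 1 to 3, and 0.811, 0.876 and 0.845 in STYK1 1 to 3. Ratio values of the 2 groups did not overlap, with or without vector 1. Sel1l was picked from this contrast and separated alone, so this too is no second result. Derl1, a channel component of the same complex, measured 46.5 ± 1.78 against 43.6 ± 0.892 FPKM, and Herpud1, which recruits HRD1 complexes and is a target of the unfolded protein response, measured 22.5 ± 3.11 against 21.3 ± 1.49 FPKM. Ufd1, of the extraction complex, measured 81.7 ± 4.20 against 76.4 ± 1.47 FPKM, Sgta 65.4 ± 9.27 against 55.5 ± 1.91 FPKM, and Bag6, the most abundant of the list, 106 ± 15.6 against 95.6 ± 0.932 FPKM. Without vector 1 the log2 difference went from -0.09 to -0.06 for Ufd1, from -0.23 to -0.11 for Sgta and from -0.14 to -0.03 for Bag6, while Syvn1 and Herpud1, at -0.07 with all libraries, came to 0.03.

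Of 19 tested genes for sensors and factors of the unfolded protein response, 1 was higher and 0 were lower with no overlap. That was 5.26% of the list, against 23.1% of all tested genes. The median was -0.03, or 0.01 without vector 1. None had an unadjusted p under 0.05 (limma-trend, 0 of 19). The gene with no overlap was Eif2ak3, the sensor PERK, at 5.62, 5.69 and 5.70 FPKM with the vector and 5.91, 6.93 and 6.69 FPKM with STYK1/NOK. Xbp1, which encodes the factor produced after IRE1 splicing, measured 39.0, 46.0 and 43.5 FPKM with the vector and 37.9, 42.6 and 40.2 FPKM with STYK1/NOK, with overlap and a log2 difference of -0.09 that was -0.15 without vector 1. Gene-level values do not separate spliced from unspliced Xbp1 transcripts. Atf4, the factor translated after PERK acts, measured 346, 266 and 257 FPKM with the vector and 236, 263 and 244 FPKM with STYK1/NOK, with vector 1 the highest. The log2 difference of Atf4 was -0.21 ± 0.12 (SE), and -0.08 without vector 1. Ddit3 was not analysed here.

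**Figure D4:**
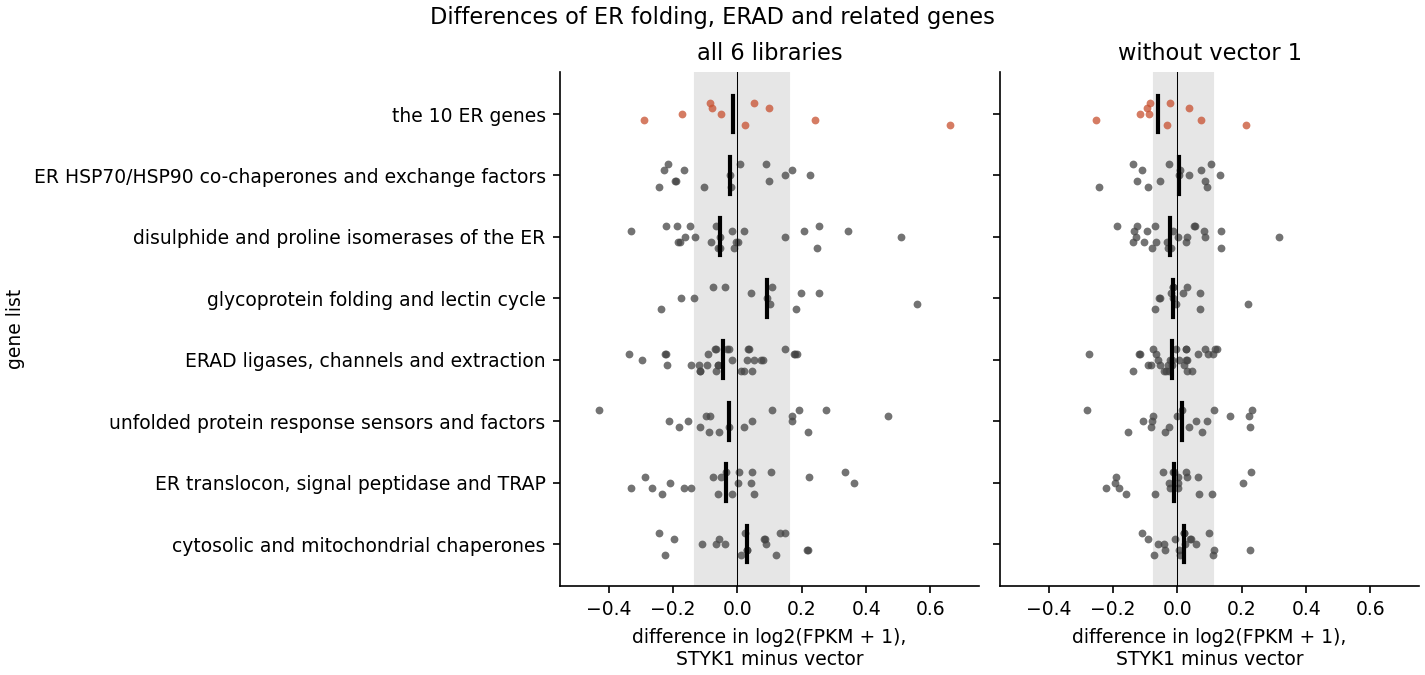
Difference in log2(FPKM + 1) between STYK1 and vector libraries (x axis) for each tested gene of the 10 ER genes (red) and of 7 gene lists (grey), with all 6 libraries on the left and without vector 1 on the right. Black bars are list medians and the shaded band runs between the quartiles of all tested genes, from -0.13 to 0.16 on the left and from -0.07 to 0.11 on the right; the list medians lie inside the band in both plots.

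A pair of neighbouring groups of genes was set beside the ER chaperones. The ER translocon, signal peptidase and TRAP list had a median of -0.04 over 21 tested genes. With no overlap, 2 were higher and 4 lower, 28.6% of the list against 23.1% of all tested genes. At an unadjusted p under 0.05, 1 was higher and 4 lower (limma-trend), where 9.84% of all tested genes had such a p. At an adjusted p under 0.05 there were 0. Ssr4 and Ssr2, of the TRAP complex that assists translocation, measured 211.5 ± 29.7 against 167 ± 10.3 FPKM and 144 ± 17.8 against 117 ± 8.79 FPKM. Sec61g, the small subunit of the channel, measured 344 ± 36.9 against 285 ± 24.0 FPKM, and Spcs1, of signal peptidase, 164 ± 16.0 against 139 ± 6.46 FPKM. Without vector 1 the log2 differences went from -0.33 to -0.22 for Ssr4, from -0.29 to -0.19 for Ssr2, from -0.27 to -0.18 for Sec61g and from -0.24 to -0.16 for Spcs1. Cytosolic and mitochondrial chaperones had a median of 0.03 over 19 tested genes, with 2 higher and 1 lower with no overlap, 15.8% of the list. At an unadjusted p under 0.05, 1 was higher and 0 lower, and 0 passed (limma-trend). Hspa4 measured 61.5 ± 0.727 against 71.8 ± 3.64 FPKM, Hsph1 55.1 ± 7.22 against 64.0 ± 2.46 FPKM, and Cdc37, which brings kinases to HSP90, 155 ± 25.9 against 130 ± 3.24 FPKM. Without vector 1 the log2 difference of Hspa4 went from 0.22 to 0.23, that of Hsph1 from 0.22 to 0.11 and that of Cdc37 from -0.24 to -0.11. Hspa8, the constitutive cytosolic HSP70 and the most abundant of the list, lay at 1461 ± 41.3 against 1422 ± 37.3 FPKM, a log2 difference of -0.04 that was -0.06 without vector 1. No test of the difference between these lists and the 10 ER genes was made.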

How the data were processed

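Gene-level FPKM values, computed and deposited by the authors for 6 libraries, were used as they stand; the unit is given per the file headers. Per the labels' protocols, Trizol RNA (1 ug) went into TruSeq libraries. Bowtie 0.12.2 and the mouse builds mm8 and mm9 are named, with no role, in the submitters' processing notes. The tool behind the FPKM values, its use of strand and its treatment of reads shared between gene copies were not given in the sources used here. Paralogs, overlapping genes and antisense partners are therefore uncertain. Absolute depth is not known.

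Of 16078 IDs, 15049 matched a RefSeq gene table (BCM_Maur_2.0), used only for names. Genes averaging 1 FPKM or more in either group were tested with limma-trend (limma 3.58.1, R 4.3.3, robust) on log2(FPKM + 1), with Benjamini-Hochberg adjustment over 11464 genes. Differences on that scale understate those of low genes. The test was checked on simulated data. The 10 genes and all lists were chosen with earlier results of these data known. Named genes besides the 10 were, in each list, up to 4 with the smallest p among those with no overlap between groups, the most abundant gene and set partners of the chaperones, and for Hspa5 and Sel1l the 5 nearest library profiles with a gene name. Relative depth was the most frequent ratio between libraries at 0.8 to 6 FPKM.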

Additional observations from a re-analysis of the deposited data

How the results depend on the processing

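With all 6 libraries 0 genes were called, and so it was with each other scaling, pseudocount and filter; library quality weights called 24 genes, and leaving out 1 library at a time called between 0 and 2, with 2 genes without vector 3, without STYK1 1 or without STYK1 3. The median log2 difference of the 10 genes, -0.01, was 0.10 with equal FPKM sums and 0.11 after quantile normalization, and lay between -0.06 and 0.05 when 1 library was left out. Manf, Sel1l, Canx and Hsp90b1 kept their sign in all 14 alternatives. Among these, the other filters and the replicate block leave the difference of a gene unchanged, so they could not change a sign. Manf and Sel1l were also picked for lying on opposite sides in these same data. Of the other genes named, these took the other sign. With equal sums, Derl1 came to 0.020, Herpud1 to 0.041, Hspa8 to 0.073, Serpinh1 to 0.031, Syvn1 to 0.039, Ufd1 to 0.016 and Xbp1 to 0.021. After quantile normalization Hspa8 came to 0.21 and Serpinh1 to 0.050. With quality weights, Herpud1 came to 0.024 and Hyou1 to -0.050, and after median centring Hyou1 came to -0.019. Leaving out 1 library at a time gave -0.026 to 0.058 for Hyou1, -0.12 to 0.026 for Syvn1 and -0.16 to 0.031 for Herpud1, where the lowest of Hyou1 and the highest of the other 2 were without vector 1. None of these genes passed the test in any of these settings, and the cause of the shifts was not tested. The titles number the libraries 1 to 3 in both groups, but deviations of libraries with the same number did not go together (correlations of -0.27, -0.16 and 0.11), so the number was not used as a pairing. With a replicate block again 0 genes were called and the median of the 10 genes was -0.01. Each number occurs in both groups, so a block leaves every difference unchanged and that median was fixed in advance. Only 3 libraries per group limit all differences, and counting error cannot be given without depth.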
